A study of Mus musculus domesticus with 18 samples.

Results

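The genes described are 10 components of the circadian clock and its direct outputs, Bmal1 (written Arntl in the array's annotation), Clock, Per1, Per2, Per3, Cry1, Nr1d1, Dbp, Tef and Hlf. They were taken by symbol, and all 25 probe sets annotated to only 1 of these symbols were used, out of 45101 probe sets for 18193 named genes. The samples are livers of 18 wild male house mice (Mus musculus domesticus), hybridised to Affymetrix mouse arrays with 1 array per mouse. The high altitude group holds 9 mice trapped around La Paz, Bolivia, at 3600 m, and the low altitude group 9 mice trapped around Lima, Peru, at 100 m. Each altitude has 3 trapping locations with 3 mice apiece, lettered A to C, and a mouse is called here by its letter and number. The labels record C57BL/6J as strain, whereas the titles and the design text describe wild-trapped animals, and the titles and design text were followed. Altitude coincides with city and population and cannot be told apart from them, and the hour at which each liver was taken is not in the labels.

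In mammals BMAL1 and CLOCK bind DNA together and switch on the Per and Cry genes, Nr1d1 and Dbp. PER and CRY proteins then block BMAL1 and CLOCK, while NR1D1 (REV-ERB alpha) represses the Bmal1 gene itself. In mouse liver this loop makes Bmal1 RNA peak at nearly the opposite time of day from Dbp, Nr1d1 and the Per genes, with Cry1 later than the other repressors. DBP, TEF and HLF are related transcription factors of the PAR bZIP family that carry the rhythm to liver genes, among them enzymes of detoxification.

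Values are log2 RMA levels, on which 1 unit is a 2-fold step, and levels of different genes are not comparable with each other. A gene is represented by its probe set with the highest mean, and the further probe sets of a gene are described after it. The median level over all genes was 6.31. Of the hepatocyte markers 6 of 7 were measured (Alb, Apoa1, Ttr, Apob, Cps1 and Ass1), and their levels summed on the linear scale were 92492 to 102630 in high altitude livers and 90665 to 104837 in low altitude livers. Summed lymphocyte markers (5 of 6 measured) were 236 to 377 in high altitude and 211 to 260 in low altitude livers. Kupffer cell markers (6 of 6 measured) were 5444 to 12244 and 4648 to 9225 in the same order. The ranges of both altitudes overlapped for these sums and for those of endothelial, erythroid, cholangiocyte and stellate markers. The part of these cells in the results below was not tested. Bulk liver RNA cannot tell fewer cells of a type from less RNA per cell.

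These genes varied widely between mice trapped at the same place. In 8 of the 10 genes the SD between mice of the same location lay in the top 10% of all 18193 genes. Dbp had an SD of 2.03 within locations (percentile 99.9), Bmal1 0.83 (98.9), Cry1 0.77 (98.7) and Tef 0.58 (97.1), against a median of 0.180 over all genes. Hlf (0.27, percentile 79.7) and the brightest Per2 probe set (0.11, percentile 10.4) were outside that top 10%. Between 47.2% (Hlf) and 92.5% (Bmal1) of a gene's variance lay between mice of the same location. Dbp spanned 5.88 log2 units, or 58.9-fold, between high altitude B3 (5.06) and low altitude C3 (10.94), and Bmal1 spanned 4.41-fold.

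**Figure D1:**
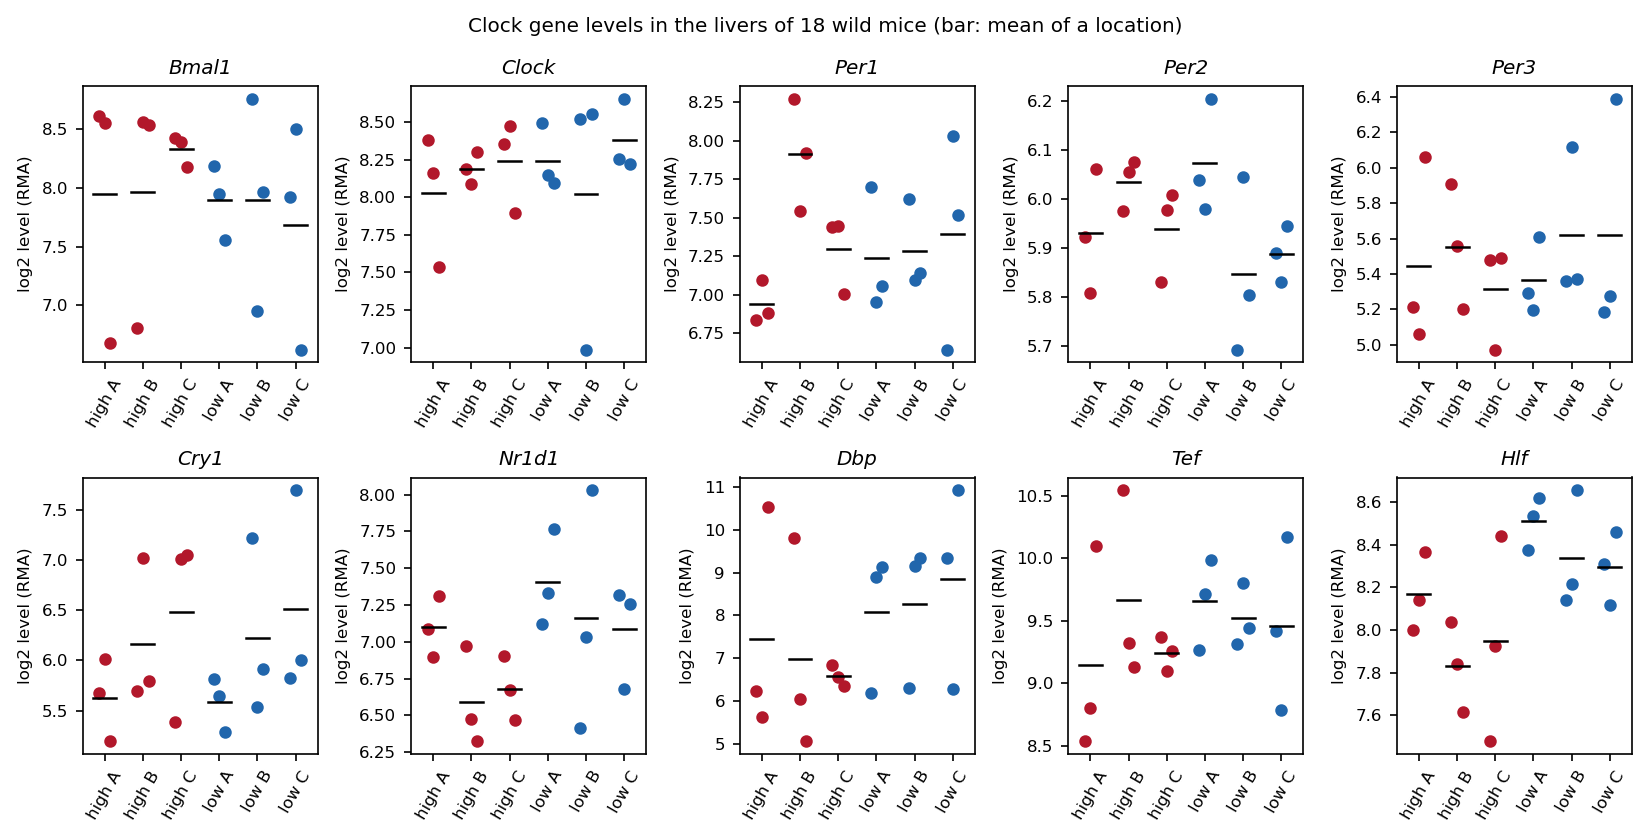
Log2 RMA level (y axis) of each of the 10 clock genes in every mouse (points), by trapping location (x axis), with high altitude in red and low altitude in blue and a bar at the mean of the 3 mice of a location. In high altitude location A, Bmal1 runs from 6.67 to 8.61 and Dbp from 5.62 to 10.53, and the mice of both altitudes overlap for all 10 genes.

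Bmal1, the activator whose RNA cycles, was 8.61, 8.55 and 6.67 in high altitude mice A1, A2 and A4, 6.80, 8.57 and 8.53 in B1 to B3, and 8.42, 8.39 and 8.18 in C1 to C3. It was 8.18, 7.95 and 7.56 in low altitude mice A1 to A3, 8.76, 6.95 and 7.97 in B1 to B3, and 7.92, 8.51 and 6.62 in C1 to C3. The levels of 4 mice stood low, between 6.62 and 6.95, namely A4 and B1 of high altitude and B2 and C3 of low altitude, and the other 14 lay between 7.56 and 8.76. Bmal1 averaged 8.08 ± 0.77 in high altitude and 7.83 ± 0.69 in low altitude livers (SD, n = 9 each), a difference of 0.26 ± 0.32 (SE, adjusted p = 0.840). This and the following altitude tests are limma fits with location as a random block, adjusted over all 18193 genes. A second, dimmer Bmal1 probe set (1457740_at, mean 5.46) ranged only between 5.24 and 5.75 and had a Pearson correlation of 0.20 with the first over the 18 mice (Spearman 0.25, permutation p = 0.423 and 0.309, adjusted p = 0.508 and 0.354 over 24 probe sets).

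Clock, the partner of BMAL1, ran from 7.54 through a median of 8.19 to 8.47 in high altitude mice and from 6.99 through 8.25 to 8.65 in low altitude mice. The groups overlapped almost wholly, and the mean difference was -0.06 ± 0.18 (SE, limma adjusted p = 0.949). Low altitude B2 had the lowest value and was also among the 4 mice with low Bmal1. The 3 dimmer Clock probe sets gave differences of -0.26, -0.39 and -0.16, and none passed limma's test over all probe sets (adjusted p of 0.475 to 0.680).

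Among the repressors, Per1, which also responds to acute signals, ran from 6.84 through 7.44 to 8.27 in high altitude mice and from 6.64 through 7.14 to 8.03 in low altitude mice. Its mean difference was 0.08 ± 0.20 (SE, limma adjusted p = 0.942). Cry1, whose protein is the stronger partner in the repressing complex, ran from 5.20 through 5.79 to 7.05 in high altitude mice and from 5.28 through 5.82 to 7.70 in low altitude mice. Its values fell into separate sets, with 13 mice at 6.02 or below and 5 at 7.01 or above. The 5 mice were B2, C2 and C3 of high altitude and B1 and C2 of low altitude, and the mean difference was -0.01 ± 0.33 (SE, limma adjusted p = 0.996).

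Per2 depended on the probe set. The brightest one (1417603_at) stayed between 5.69 and 6.21 in all mice and differed by 0.03 ± 0.07 (SE, limma adjusted p = 0.926). The next one (1417602_at) ran from 4.67 through a median of 5.42 to 6.92 in high altitude mice and from 5.36 through 6.06 to 6.95 in low altitude mice, a difference of -0.46 ± 0.26 (SE, limma adjusted p = 0.601 over all probe sets). As a description, these probe sets of the same gene had an r of 0.24 with each other over the 18 mice, so the flat level of Per2 does not hold for every probe set. The dimmest (1457350_at) ran from 5.16 through 5.46 to 5.95 in high altitude mice and from 5.30 through 5.62 to 5.80 in low altitude mice (difference -0.08 ± 0.08, SE, limma adjusted p = 0.813 over all probe sets). Per3 was dim throughout, from 4.97 through 5.48 to 6.06 in high altitude mice and from 5.19 through 5.36 to 6.39 in low altitude mice. Its mean difference was -0.10 ± 0.18 (SE, limma adjusted p = 0.911), and its highest 4 values belonged to the same 4 mice that had low Bmal1. The 5 dimmer Per3 probe sets did not pass either (limma adjusted p of 0.795 to 0.961 over all probe sets). Only 1 of them (1441445_at) followed the brightest, with an r of 0.69 over the 18 mice, and the other 4 had an r of -0.08 to 0.15 with it, given as descriptions.

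Nr1d1, the nuclear receptor that represses Bmal1, ran from 6.33 through 6.90 to 7.31 in high altitude mice and from 6.42 through 7.26 to 8.03 in low altitude mice. It averaged 6.79 ± 0.33 in high altitude and 7.22 ± 0.50 in low altitude livers (SD, n = 9 each). The difference of -0.43 ± 0.18 (SE) had an unadjusted limma p of 0.0301 and did not pass the adjustment (0.359). Its exact permutation p over all splits of 9 against 9 mice was 0.0457, two-sided and unadjusted. This exact test shuffles single mice and takes no account of location, here and for the genes below.

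Dbp, the output factor with the deepest rhythm in mouse liver, was 6.22, 5.62 and 10.53 in high altitude A1, A2 and A4, 9.82, 6.05 and 5.06 in B1 to B3, and 6.85, 6.56 and 6.34 in C1 to C3. It was 6.19, 8.90 and 9.13 in low altitude A1 to A3, 6.30, 9.16 and 9.35 in B1 to B3, and 9.35, 6.28 and 10.94 in C1 to C3. No mouse lay between 6.85 and 8.90, and the 8 mice above that gap were 2 of high altitude and 6 of low altitude. Dbp averaged 7.01 ± 1.88 in high altitude and 8.40 ± 1.71 in low altitude livers (SD, n = 9 each). The difference of -1.39 ± 0.77 (SE), or 2.63-fold lower at high altitude, did not pass (unadjusted limma p = 0.0841, adjusted p = 0.520, exact permutation p = 0.120). The second Dbp probe set (1418174_at) followed the first closely and differed by -0.86 ± 0.54 (SE, limma adjusted p = 0.640 over all probe sets).

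Tef was 8.54, 8.80 and 10.10 in high altitude A1, A2 and A4, 10.55, 9.32 and 9.13 in B1 to B3, and 9.37, 9.10 and 9.26 in C1 to C3. It was 9.27, 9.72 and 9.98 in low altitude A1 to A3, 9.32, 9.80 and 9.44 in B1 to B3, and 9.42, 8.78 and 10.17 in C1 to C3. The highest mice were again B1 and A4 of high altitude and C3 of low altitude, and the groups differed by -0.19 ± 0.23 (SE, limma adjusted p = 0.836). The 2 dimmer Tef probe sets, with an r of 0.48 and 0.34 to the brightest, did not pass (limma adjusted p of 0.593 and 0.996 over all probe sets). Hlf was the member with the smallest p between altitudes. It ran from 7.48 through 8.003 to 8.44 in high altitude mice and from 8.12 through 8.38 to 8.66 in low altitude mice, and the groups overlapped. The difference of -0.40 ± 0.12 (SE), 1.32-fold lower at high altitude, had an unadjusted limma p of 0.00385 and an adjusted p of 0.161. Its exact permutation p, which treats mice of a location as independent, was 0.00601. The second Hlf probe set (1434735_at) gave -0.14 ± 0.10 (SE, limma adjusted p = 0.730 over all probe sets).

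**Figure D2:**
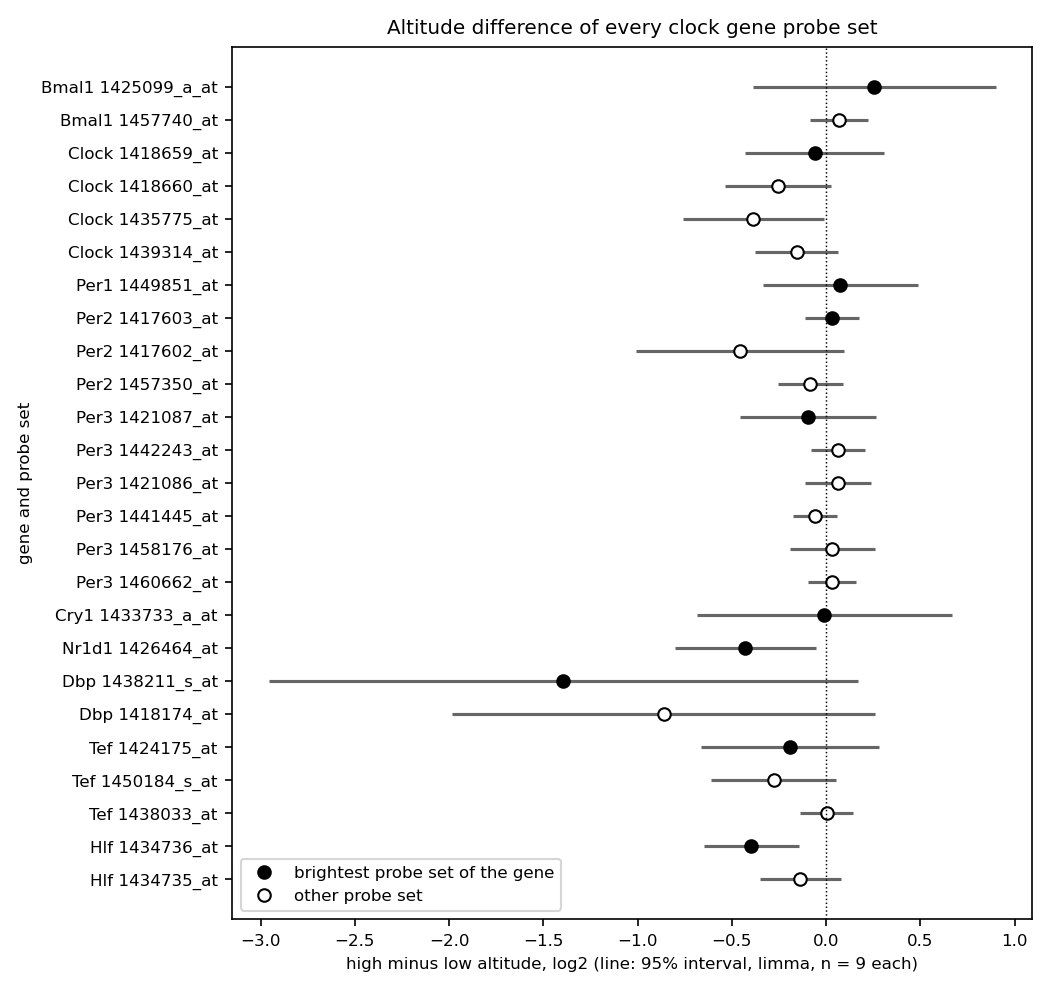
High minus low altitude difference in log2 level (x axis) of each of the 25 probe sets (y axis), with 95% intervals from limma on 9 mice against 9; filled points are the brightest probe set of each gene. The intervals of Nr1d1, of the brightest Hlf probe set and of 1 dim Clock probe set lie below 0 before any adjustment, and the interval of Dbp is the widest, from -2.96 to 0.17.

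With limma, 0 of the 10 genes passed an adjusted p of 0.05 between altitudes, against 66 of 18193 genes (0.363% called, with 41 or 0.225% higher and 25 or 0.137% lower at high altitude). Fitted over every probe set, 0 of the 25 probe sets passed (3 at an unadjusted limma p under 0.05), against 0.298% of 45037. At an unadjusted p under 0.05 there were 2 of 10, Hlf and Nr1d1, against 11.5% of all genes. The median difference over the 10 genes was -0.08, against 0.00 over all genes, with 3 of the 10 positive. In 0 of 10 genes did the 9 high altitude and 9 low altitude mice not overlap, against 0.115% of all genes. The 3 location means of high altitude did not overlap the 3 of low altitude in Bmal1, Dbp and Hlf, 3 of 10 genes, against 14.6% of all genes. Among trapping locations, limma's F test called 0 of 10 genes within high altitude (55 of 18193 genes, 0.302% called) and 0 of 10 within low altitude (13 genes, 0.0715% called). At an unadjusted p under 0.05 the same F tests gave Per1 alone within high altitude, against 8.91% of all genes, and 0 of 10 within low altitude, against 6.68%. Per1 averaged 6.94 ± 0.14 in location A, 7.91 ± 0.37 in location B and 7.30 ± 0.25 in location C of high altitude (SD, n = 3 each; limma F = 5.66, adjusted p = 0.364).

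Several members did not vary independently across mice. They are described here by the gap in Dbp, a split made after seeing the data. Whether the clock loop underlies the pattern was not tested, and the hour of each liver is not in the labels. The 8 mice with Dbp above its gap had Bmal1 between 6.62 and 7.97 and Tef between 9.42 and 10.55. The 10 mice below the gap had Bmal1 between 8.18 and 8.76 and Tef between 8.54 and 9.37. So no mouse combined high Dbp with Bmal1 or Tef in the range of the other mice, and this held for mice of both altitudes. Nr1d1 overlapped, at 6.97 to 8.03 in the 8 mice and 6.33 to 7.12 in the 10. All 5 mice with high Cry1 were among the 10 with low Dbp, with Bmal1 of 8.18 to 8.76 and Nr1d1 of 6.42 to 6.68.

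**Figure D3:**
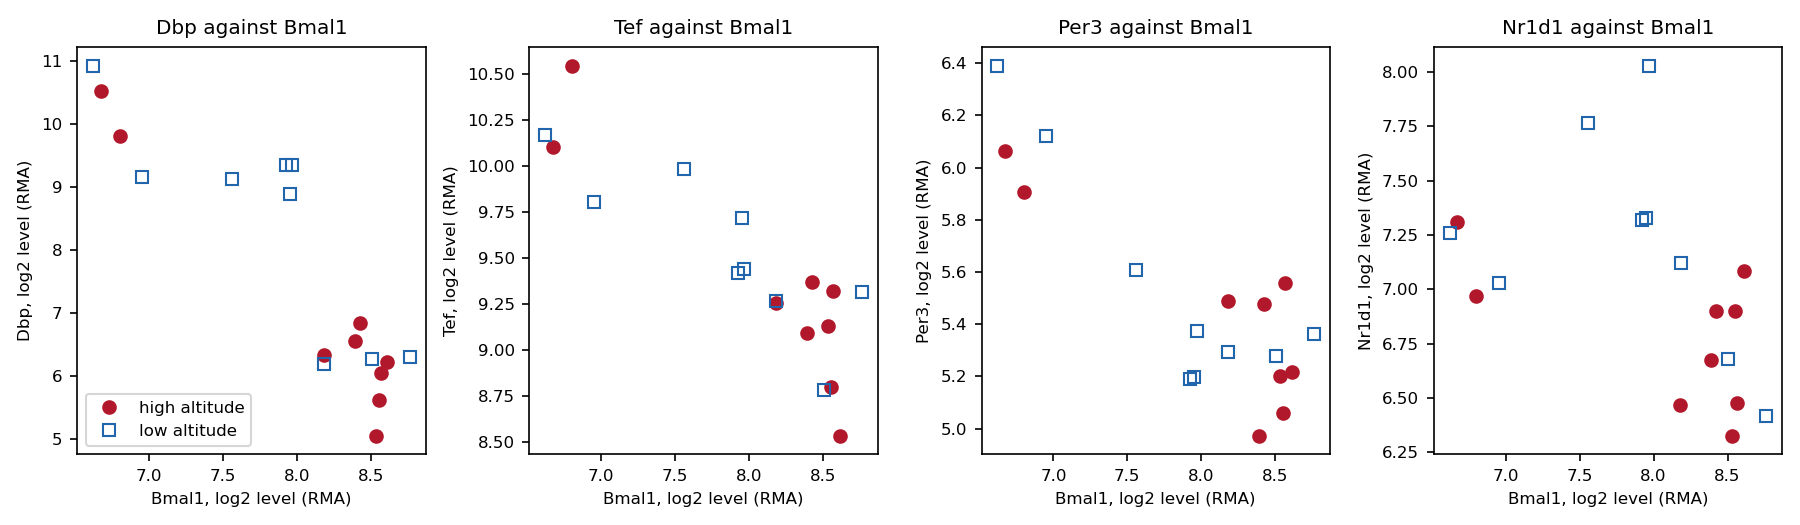
Log2 RMA level of Dbp, Tef, Per3 and Nr1d1 (y axes) against that of Bmal1 (x axes) in the 18 mice, with high altitude as filled circles and low altitude as open squares. Dbp and Tef are high where Bmal1 is low, and mice of both altitudes stand at either end. The mice in between, with Bmal1 of 7.56 to 7.97, are all of low altitude. Per3 is at 5.91 or above in the 4 mice with Bmal1 between 6.62 and 6.95 and at 5.61 or below in the others.

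Dbp and Cry1 fall into separate sets of mice, so no correlation over all mice is given for them; this rule was set after seeing the data. The remaining 8 genes form 28 pairs, tested with p-values adjusted over all 45 pairs, and 6 passed. Those 45 include the pairs with Dbp or Cry1, whose small p-values ease the adjustment of the other pairs, here and below. Bmal1 with Clock and Clock with Per3 passed only narrowly (permutation adjusted p = 0.0455 and 0.0464). Their calls may therefore rest on the pairs left out, and no adjustment over the 28 pairs alone was made. As a description, the share of all genes with an r to Bmal1 of at least the same size was 0.0165% for Tef, 0.0220% for Per3 and 1.14% for Clock. For r to Clock this share was 7.12% for Bmal1 and 6.45% for Per3. It was 0.0550% for r to Per3 at the size of Tef, and 0.945% for r to Nr1d1 at the size of Hlf. Bmal1 and Tef moved oppositely, with a Pearson r of -0.87 over 18 mice (permutation p = 1e-05, the smallest that 100000 permutations can give, adjusted p = 0.000225) and a Spearman rho of -0.83 (permutation p = 5e-05, adjusted p = 0.00105). With location means removed r was -0.94 (exact within-location permutation p = 0.000279, adjusted p = 0.00627). Within high altitude it was -0.90 (exact permutation p = 0.0049, adjusted p = 0.0688) and within low altitude -0.83 (exact permutation p = 0.0051, adjusted p = 0.0525). That high altitude r rests mainly on A4 and B1, with Bmal1 of 6.67 and 6.80, against 8.18 to 8.61 in the others. Without the 2 mice farthest from the median of Bmal1, high altitude A4 and low altitude C3, the r over the other mice was -0.85. Over the 14 mice with Bmal1 above 7.5 it was -0.75 (permutation adjusted p = 0.0186). Among those 14, Bmal1 between 7.56 and 7.97 occurred only in low altitude A2, A3, B3 and C1.

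Bmal1 and Per3 had an r of -0.86 (permutation p = 4e-05, adjusted p = 0.00045) but a rho of only -0.56 (adjusted p = 0.0688). Without high altitude A4 and low altitude C3 r was -0.75, and over the 14 mice with Bmal1 above 7.5 it was -0.27, so the relation rests on the 4 mice with low Bmal1. Per3 and Tef rose together, with an r of 0.77 and a rho of 0.71 (permutation p = 0.00025 and 0.00134, adjusted p = 0.00225 and 0.013). For that pair r was 0.77 without low altitude B2 and C3, and 0.51 (permutation adjusted p = 0.205) over the 14 mice with Bmal1 above 7.5. Bmal1 and Clock, the activators, had an r of 0.59 (permutation p = 0.0101, adjusted p = 0.0455), a rho of 0.46 (adjusted p = 0.132) and an r of 0.66 with location means removed (exact within-location adjusted p = 0.0334). Leaving out any 1 mouse gave 0.50 to 0.68, with the call lost in 11 of 18 cases. Without high altitude A4 and low altitude C3 r was 0.59 (adjusted p = 0.125), and over the 14 mice with Bmal1 above 7.5 it was 0.31 (adjusted p = 0.482). Clock and Per3 had an r of -0.60 (permutation p = 0.0113, adjusted p = 0.0464) and a rho of -0.47 (adjusted p = 0.122), and r was -0.30 without high altitude A4 and low altitude B2, so that relation rests on those mice. Its call was lost in 13 of 18 cases without 1 mouse, and over the 14 mice with Bmal1 above 7.5 r was -0.33 (adjusted p = 0.430).

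Nr1d1 and Hlf, the genes with the smallest p between altitudes, also rose together, with an r of 0.68 and a rho of 0.71 (permutation p = 0.00198 and 0.00144, adjusted p = 0.0111 and 0.013). The pair had an r of 0.31 within high altitude (exact permutation p = 0.420) and 0.92 within low altitude (exact permutation p = 0.000265, adjusted p = 0.0119); the difference between these values was not tested. With location means removed r was 0.43 (exact within-location permutation p = 0.123, adjusted p = 0.212), and without low altitude A3 and B3 it was 0.53 (permutation adjusted p = 0.143).

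Bmal1 and its repressor Nr1d1 had an r of -0.47 (permutation p = 0.048, adjusted p = 0.135), a rho of -0.63 (permutation p = 0.00641, adjusted p = 0.0388) and an r of -0.45 without high altitude A4 and low altitude C3. With location means removed the pair's r was -0.50 and did not pass (exact within-location permutation p = 0.0898, adjusted p = 0.167). Nor did it pass within high altitude (r = -0.57, exact permutation adjusted p = 0.462) or within low altitude (r = -0.38, exact permutation adjusted p = 0.412). Over the 14 mice with Bmal1 above 7.5, a cut made after seeing the data, the pair's r was -0.78 and passed (permutation adjusted p = 0.0154). Of those 14, low altitude A2, A3, B3 and C1 had Bmal1 of 7.56 to 7.97 and Nr1d1 of 7.32 to 8.03. All high altitude mice among them had Bmal1 of 8.18 to 8.61. Altitude and Bmal1 level thus partly coincide in this r. The 4 mice with the lowest Bmal1 had middling Nr1d1, between 6.97 and 7.31. The highest Nr1d1 values, 8.03 in low altitude B3 and 7.77 in low altitude A3, stood beside intermediate Bmal1 levels of 7.97 and 7.56. Per1 was not aligned with its relatives: its r was -0.08 with Per2 (rho -0.05, permutation p = 0.768 and 0.843), 0.08 with Per3 (rho 0.12, permutation p = 0.768 and 0.627) and 0.06 with Bmal1 (rho 0.20, permutation p = 0.805 and 0.432). The variable Per2 probe set (1417602_at), unlike the brightest, ran opposite to Bmal1, with an r of -0.81 (permutation p = 5e-05, adjusted p = 0.000288 over 24 probe sets) and a rho of -0.84. It was -0.75 without high altitude A4 and low altitude C3, -0.90 within high altitude and -0.68 within low altitude. The value within high altitude again rests mainly on A4 and B1. The dimmest Per2 probe set had an r of -0.39 with Bmal1 (adjusted p = 0.148), and the 2 dimmer Tef probe sets -0.53 and -0.29 (adjusted p = 0.067 and 0.310). The 5 dimmer Per3 probe sets had an r between -0.56 and 0.17 with Bmal1, and 0 of them passed the permutation test adjusted over 24 probe sets (1 at an unadjusted p under 0.05).

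**Figure D4:**
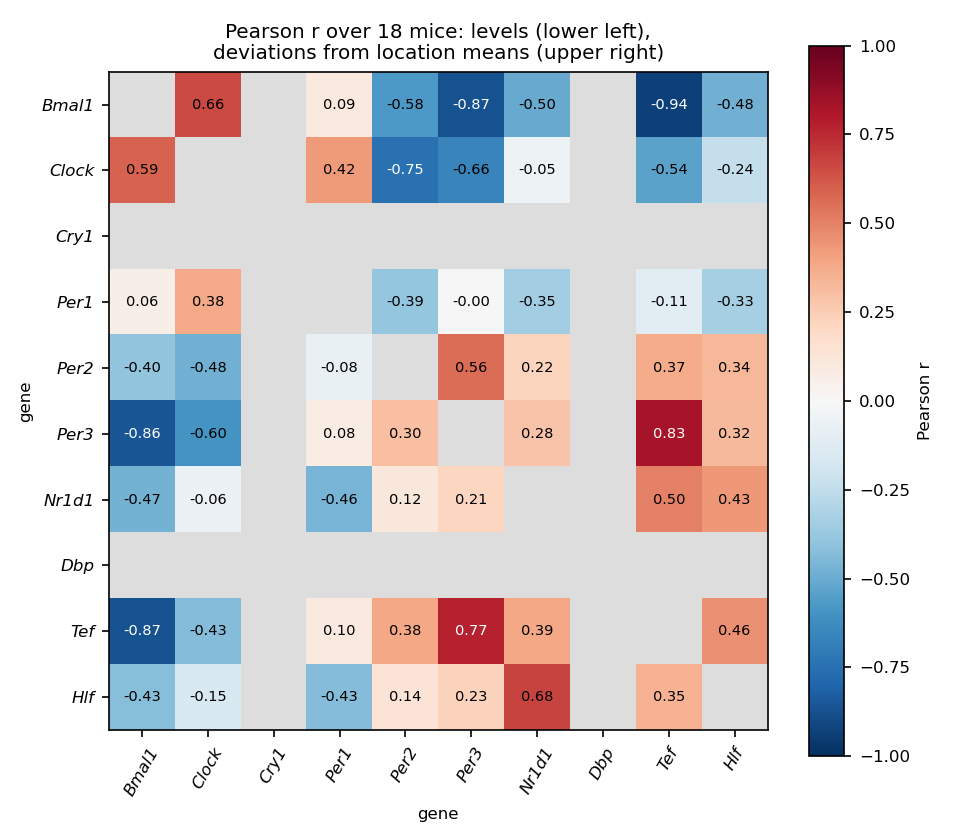
Pearson correlation over 18 mice between pairs of clock genes (both axes), from the levels in the lower left and from deviations from location means in the upper right; blue is negative and red positive, and grey marks the diagonal and the pairs with Cry1 or Dbp, for which none is given. Bmal1 stands opposite to Tef (-0.87), Per3 (-0.86) and, less so, Nr1d1 (-0.47), and Per1 is close to 0 with Bmal1.

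Within the sets of mice that Dbp and Cry1 form, 27 relations were computed, and 0 passed a permutation test adjusted over the 27, with 2 at an unadjusted p under 0.05. Among the 8 mice with high Dbp, Dbp had an r of -0.76 with Bmal1 (exact permutation p = 0.0263, adjusted p = 0.497; rho -0.69) and 0.74 with Per3 (exact permutation p = 0.0368, adjusted p = 0.497; rho 0.57). In the same mice it had an r of 0.54 with Tef (exact permutation p = 0.173), -0.25 with Nr1d1 (exact permutation p = 0.576) and -0.17 with Hlf (exact permutation p = 0.677). Among the 10 mice with low Dbp, r was -0.24 with Bmal1 and 0.22 with Tef (permutation p = 0.503 and 0.550). Among the 13 mice with low Cry1 its r was 0.26 with Bmal1 (permutation p = 0.379).

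The same order appeared inside the trapping locations for several of the genes. In each of the 6 locations the mouse with the lowest Bmal1 had the highest Per3 of its 3, and in 5 of 6 it had the highest Tef, Hlf and brightest Per2 value. It had the highest Dbp in 4 of 6 and the highest Nr1d1 in 3 of 6. It had the lowest Clock in 5 of 6 and the lowest Cry1 in 4 of 6. Per1 did not follow, being highest in that mouse in 1 of 6 locations and lowest in 2 of 6. With 3 mice per location such counts arise partly by chance, and their share over all genes was not computed.

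To place the members among all genes, the level of each gene was fitted on the mouse's own Bmal1 level with the 6 locations as fixed terms, a test added after the data had been seen. Of 18192 other genes 11 passed limma's adjusted p of 0.05 (0.0605% called), 8 with Bmal1 (0.044%) and 3 against it (0.0165%), and all 3 against it were members. Tef fell by 0.65 ± 0.07 log2 units per log2 unit of Bmal1 (SE, limma adjusted p = 0.00182) and ranked first of all genes. Per3 fell by 0.47 ± 0.07 (SE, limma adjusted p = 0.0315), at rank 8. Dbp was counted among the 11 genes, but its slope is given as a description with no p because of its separate sets. It had the steepest slope of the 11, -2.23 ± 0.27 (SE), at rank 3. Clock had a slope of 0.36 ± 0.11 (limma adjusted p = 0.513), and Cry1, again with no p, 0.55 ± 0.19. Nr1d1 had -0.26 ± 0.12, Hlf -0.16 ± 0.08, Per2 -0.08 ± 0.04 and Per1 0.05 ± 0.13 (limma adjusted p of 0.734 to 0.977). Before adjustment 6 of these 9 had a p under 0.05, against 6.65% of all genes.

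These calls depended on which mice were fitted. Without the 4 mice with Bmal1 under 7.5, limma called 0 genes (843 at an unadjusted p under 0.05), and the slopes were -0.64 for Tef, -3.98 for Dbp and -0.15 for Per3. With the mean of a gene's probe sets in place of the brightest, for Bmal1 as well, limma called 5 genes, and the slopes were -0.63 for Tef (adjusted p = 0.0691), -0.22 for Per3 (adjusted p = 0.558) and -3.75 for Dbp. Without location A of high altitude limma called 0 (1100 at an unadjusted p under 0.05), with slopes of -0.61, -2.15 and -0.46. Leaving out 1 mouse gave 3 genes (high altitude A4, low altitude B1 or C2), 4 (high altitude A2 or B3, low altitude B2), 5 (high altitude B1), 6 (low altitude C3) or 7 (low altitude A1 or A2), and 8 to 14 for each of the other mice. Tef passed in all 18 of these fits and Per3 in 7, with its adjusted p between 0.0505 and 0.255 in the other 11.

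The slopes did not pass a test of difference between altitudes: 0 of 18192 genes had a limma adjusted p under 0.05 for the interaction (848, or 4.66%, at an unadjusted p under 0.05, with 0 of the 9 members). Tef had a slope of -0.75 within high altitude and -0.54 within low altitude, a difference of -0.21 (limma adjusted p = 0.956). Per3 had -0.40 and -0.55 in the same order, a difference of 0.14 (limma adjusted p = 0.956), and Dbp -2.39 and -2.03. The high altitude slopes rest mainly on A4 and B1. Their Bmal1 was 6.67 and 6.80, against 8.18 to 8.61 in the other high altitude mice.

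**Figure D5:**
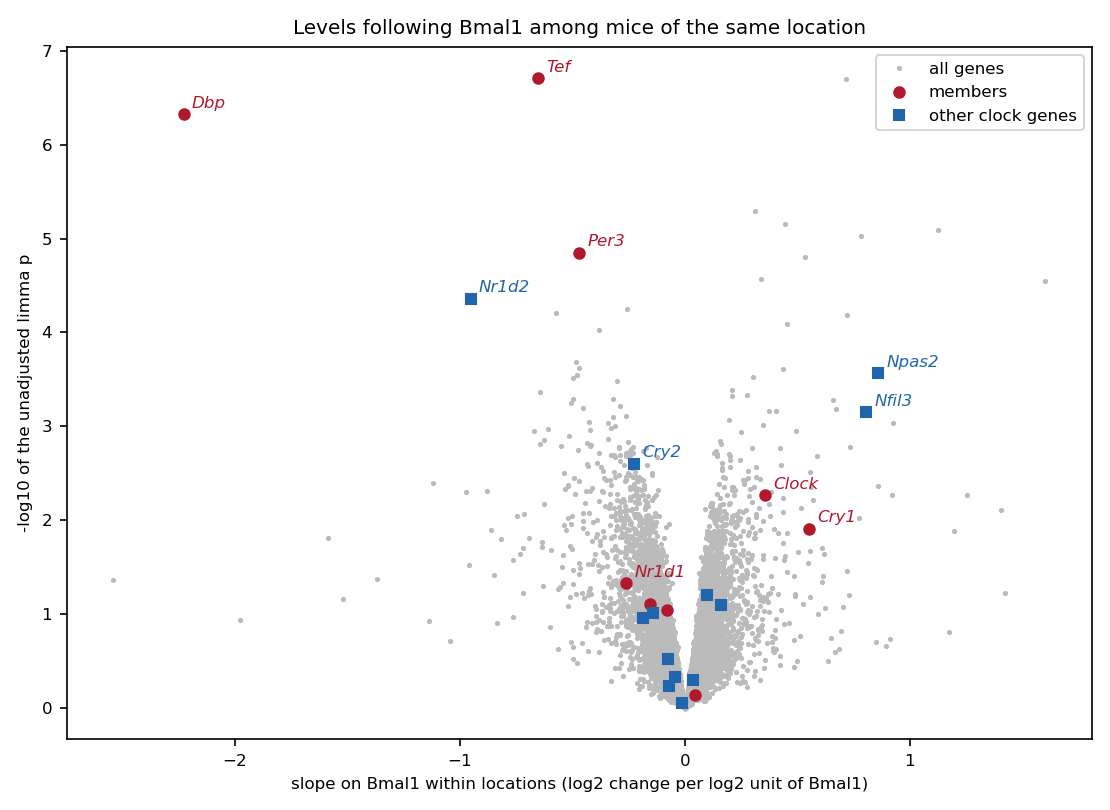
Slope of each gene on Bmal1 among mice of the same location (x axis, log2 change per log2 unit of Bmal1) against -log10 of its unadjusted limma p (y axis), for 18192 genes in grey, the other clock members in red and a list of further clock genes in blue. Tef, Dbp and Per3 lie at the upper left, and Npas2 and Nfil3 at the upper right.

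Of 15 further clock genes 13 were measured, and 0 passed the slope test. At an unadjusted limma p under 0.05 there were 4 of 13, Nr1d2, Npas2, Nfil3 and Cry2, against 6.65% of all genes, and the slopes of the other 9 lay between -0.18 and 0.16. Nr1d2 (REV-ERB beta), the relative of Nr1d1, fell just outside, with a slope of -0.95 ± 0.17 (SE, limma adjusted p = 0.0661, rank 12). It ran from 8.56 through 9.40 to 11.02 in high altitude mice and from 8.63 through 10.42 to 11.05 in low altitude mice. Npas2, which can replace CLOCK as partner of BMAL1, had a slope of 0.86 ± 0.18 (limma adjusted p = 0.229), and Nfil3, a repressor that competes with DBP for its sites, 0.81 ± 0.19 (limma adjusted p = 0.330). Cry2 had -0.23 ± 0.06 (limma adjusted p = 0.459). By altitude 0 of the 13 passed (median difference -0.04), with Csnk1e, a kinase of PER proteins, at 0.58 ± 0.17 (limma adjusted p = 0.140), Nfil3 at 0.49, Csnk1d at -0.22 and Nr1d2 at -0.42. Csnk1e passed the F test among the high altitude locations (F = 23.3, limma adjusted p = 0.0131), with means of 6.14 for location A, 7.03 for B and 7.17 for C, but not without high altitude A1 (0.0959) or A2 (0.0506).

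Of 15 rhythmic liver outputs 13 were measured. By altitude 1 passed and was higher, against 0.363% of all genes called, and 5 had an unadjusted limma p under 0.05, against 11.5% (median difference 0.24). It was Nampt, the rate-limiting enzyme of NAD salvage, which averaged 9.53 ± 0.23 in high altitude and 8.97 ± 0.28 in low altitude livers (SD, n = 9 each), a difference of 0.56 ± 0.12 (SE, limma adjusted p = 0.0392). Nampt ran from 9.21 through 9.51 to 9.83 in high altitude mice and from 8.77 through 8.87 to 9.68 in low altitude mice, where B2 alone, a mouse with low Bmal1, exceeded 9.03. It no longer passed in 13 of 18 fits without 1 mouse, with a difference of 0.53 to 0.65 and an adjusted p up to 0.112 without low altitude B3. It also did not pass with arrays centred on the median (0.0582), normalized again (0.0692), probe set means (0.0608), the integrity covariate (0.0548), the mouse number as a block (0.0902) or 1 mean per location (0.183). Its slope on Bmal1 was -0.24 (limma adjusted p = 0.499). Ppard, Elovl3 and Cyp7a1, the rate-limiting enzyme of bile acid synthesis, differed by 0.38, -2.53 and 1.42 without passing (limma adjusted p of 0.316 to 0.349).

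At an unadjusted limma p under 0.05 on the slope test, 2 of these 13 outputs rose with Bmal1 and 4 fell (46.2%, against 6.65% of all genes). After adjustment 1 passed, against 0.0605% of all genes. It was Cdkn1a (p21), an inhibitor of the cell cycle, with a slope of 1.60 ± 0.27 (SE, limma adjusted p = 0.0472). It ran from 6.58 through 9.55 to 11.05 in high altitude mice and from 6.66 through 8.06 to 10.58 in low altitude mice. Its call was lost in 16 of 18 fits without 1 mouse, with a slope of 1.39 to 1.87, and also with the integrity covariate (limma adjusted p = 0.239), without eBayes' trend (0.0602) and with the mouse number as a block (0.531). Wee1, a kinase that delays mitosis and a known clock output, had the opposite slope, -0.47 ± 0.10 (limma adjusted p = 0.225). Of the feeding and fasting genes 10 of 12 were measured, with 0 called by altitude and 0 on the slope test. At an unadjusted limma p under 0.05 there was 1 of 10 by altitude, against 11.5% of all genes (Pdk4 at 0.68, adjusted p = 0.233). On the slope test there was also 1 of 10, against 6.65% of all genes. Of 8 glucocorticoid response genes 0 passed by altitude and 0 on the slope test. At an unadjusted limma p under 0.05 there were 0 of 8 by altitude, against 11.5% of all genes. The slope test gave 3 of 8 at that threshold (37.5%, against 6.65% of all genes), Tsc22d3 at 0.59, Tat at 0.34 and Nr3c1 at -0.16.

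The non-member genes whose levels over the 18 mice were most like Bmal1 were Clpx (r = 0.88), Lnx2 (0.85) and Lgalsl (0.83), and those most opposite were Nr1d2 (-0.82), Slc12a7 (-0.77) and Rell1 (-0.76). Most like Tef were Nr1d2 (0.83), Jarid2 (0.81) and Cry2 (0.81), and most opposite Lgalsl (-0.85), Cdkn1a (-0.77) and Clpx (-0.76). Most like Per3 were Ccdc71 (0.86), Rarb (0.78) and Dclre1a (0.78), and most like Nr1d1 were Ssbp1 (0.88), Htatsf1 (0.86) and Tefm (0.85). Most like Hlf were Sar1b (0.88), Gpsm2 (0.85) and Tyw5 (0.84), most like Clock were Ufd1 (0.88), Rnf2 (0.87) and Dyrk1a (0.87), and most like Per1 were Wbp1l (0.85), Cebpd (0.83) and Usp31 (0.82). Most like the flat Per2 probe set were Rasl11a (0.77), Papln (0.75) and A330033J07Rik (0.74). These correlations are descriptions with no p, over the same arrays. Clpx, a mitochondrial chaperone, passed the slope test at 0.72 ± 0.08 (SE, limma adjusted p = 0.00182).

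RNA integrity, read as the difference between 3′ and 5′ control probe sets, was 0.84 to 2.02 in high altitude and 0.98 to 1.45 in low altitude livers, where a larger value means more degraded RNA. Its r with the members lay between -0.32 and 0.52, largest for Tef (permutation p = 0.0267, adjusted p = 0.267 over 10 genes). With integrity as a covariate the slope test called 4 genes, and the slope of Per3 was -0.50 (limma adjusted p = 0.104).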

How the data were processed

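Total RNA from 18 livers was hybridised to Affymetrix arrays, and the deposited table holds log2 values of 45101 probe sets, made by the authors with RMA in the R package affy, per the submitters' processing notes, of unstated version. RMA quantile normalizes probes between arrays and compresses dim probe sets towards a floor. Detection calls and scan dates were not used here, and the number of arrays limits the precision. Arrays correlated at 0.976 to 0.994 with each other, and 0 pairs were duplicates. Gene names came from GEO's platform annotation. Of the probe sets, 34945 had 1 gene symbol, 932 several and 9160 none listed, and 64 Affymetrix controls were left out. The brightest single-gene probe set stood for each of the 18193 genes, with no filter on dim genes. No genome build comes with the values and no sequence was at hand, so neither coordinates nor sequences are given.

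Titles gave altitude and location. The altitude model was fitted with limma 3.58.1 (R 4.3.3), taking location as a random block (consensus correlation 0.00586) and eBayes with a trend; tests were two-sided and p-values were adjusted by Benjamini and Hochberg, with a threshold of 0.05, over genes and, separately, over 45037 probe sets. The F tests used all 6 location means. Correlations over mice used 100000 permutations, or every order within altitudes (362880) or within locations (46656). A gene's mice were called separate sets where a gap exceeded 33.3% of the range with at least 3 mice on each side. The fit on Bmal1, its alternatives and this gap rule were added after seeing the data. Scripts were tested on simulated data. The genes and lists were chosen with earlier results of these data known, so no p is adjusted over them alone. The genes named besides the members are those of a list that passed a test, the 4 of a list with the smallest p, and the 3 most like each member; further genes, such as Npas2, Cry2, Wee1 and Tat, were named after their slopes were seen. Some genes of the lists were not analysed here.

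Mouse numbers recur across locations (high altitude A has 1, 2 and 4, the others 1 to 3), and no label says that a number pairs animals. Same-numbered mice had a mean correlation of deviations of -0.014 (40 pairs), and mice of different numbers 0.006 (95 pairs).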

Additional observations from a re-analysis of the deposited data

Results flagged for a closer look

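Each of the 25 probe sets was checked in both altitudes, 50 groups of 9 mice, for a mouse whose gap to the nearest other mouse exceeded Dixon's 95% critical share of the range, which chance passes in about 1 of 20 groups. A set of 3 values passed. Low altitude B2 had 6.99 on the brightest Clock probe set (1418659_at), where the other 8 low altitude mice lay between 8.09 and 8.65. The same mouse had 5.85 on a dimmer Clock probe set (1435775_at), where the others lay between 6.57 and 7.23. High altitude A4 had 7.18 on a dimmer Tef probe set (1450184_s_at), where the other high altitude mice lay between 6.01 and 6.56. Both mice belong to the 4 with low Bmal1.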

How the results depend on the processing

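No member passed the altitude test under any alternative run, and Bmal1, Nr1d1, Dbp, Tef and Hlf kept their direction in all of them. Signs turned for the genes nearest 0. Clock became 0.015 with the mouse number as a replicate block, 0.0026 without location A of high altitude and 0.021 without location C of low altitude. Cry1 became 0.085 with the replicate block, 0.0095 with array weights, 0.045 with the integrity covariate, and 0.22, 0.047 and 0.19 without high altitude A, low altitude B and low altitude C. Per1 became -0.070 with the integrity covariate and -0.19 without high altitude B. Per2 became -0.17 as the mean of its probe sets and -0.0023 and -0.013 without high altitude B and low altitude B, and Per3 became 0.0056 as such a mean. Leaving out 1 mouse gave -0.22 to 0.016 for Clock, -0.13 to 0.19 for Cry1, -0.034 to 0.17 for Per1 and -0.17 to 0.011 for Per3. The 66 genes called between altitudes became 0 with 1 mean per location (limma, 1617 at an unadjusted p under 0.05), 28 with the replicate block, 134 over every probe set, 135 with array weights, 180 at an adjusted p under 0.1, and 34, 100, 30 and 34 without high altitude A, high altitude B, low altitude B and low altitude C. Leaving out 1 mouse gave 19 to 84, with 38 and 40 without high altitude B1 and B2 and 27, 19 and 39 without low altitude A2, B3 and C2. Fitting each altitude alone gave 29 and 8 genes called between locations of high and low altitude; leaving out 1 mouse gave 28 to 70 and 4 to 17. The 11 genes following Bmal1 became 2 with the replicate block, 5 with probe set means, 4 with the integrity covariate, 0 without the 4 mice with low Bmal1, and 0, 5, 4, 4 and 6 without high altitude A, high altitude B, low altitude A, low altitude B and low altitude C, with 3 to 14 when 1 mouse was left out. With the replicate block the slopes of Tef and Per3 were -0.61 and -0.45 (limma adjusted p = 0.0841 and 0.420). The slope of Per1 was -0.013 without low altitude B and -0.057 to 0.16 without 1 mouse. In place of 6 correlated pairs, not always the same ones, there were 0 within high altitude and 1 within low altitude, and 3 each without low altitude A, without the 2 farthest mice and without the 4 mice with low Bmal1, with 4 to 6 when 1 mouse was left out. Without those 4 mice 1 of the 6 pairs still passed, Bmal1 with Tef, and Bmal1 with Nr1d1 was among the other pairs that did. Per1 with Per2 turned to 0.21 within high altitude, 1.701e-05 without the 2 farthest mice and 0.013 with the replicate block, and gave -0.17 to 0.018 without 1 mouse. The causes of these changes were not tested. The numbers were not taken to pair the mice, and 5 of 17 mice correlated best with a mouse of their own number. Several members lie near or below the median level of 6.31. RMA compresses dim probe sets towards a floor, and no depth or detection value bears on these members.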
